A study of Mus musculus with 11 samples.

Results

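The 10 genes described here, Sox2, Pou5f1, Nanog, Klf4, Esrrb, Zfp42, Tbx3, Lin28a, Sall4 and Dppa4, are best known as pluripotency genes of ES cells, and were taken by name from the 22367 protein-coding genes on chromosomes 1 to 19, X and Y in the GENCODE vM1 annotation of mm9. Pluripotency is the ability of a cell to form all tissues of the embryo. In ES cells it is held by a network of transcription factors that bind their own and each other's regulatory regions, and most of its genes are shut off as cells become fibroblasts. MacroH2A2 is a variant of histone H2A with a large globular domain outside the nucleosome and is known as a mark of silent chromatin, whereas H3.3 is a variant of histone H3 that is deposited outside of DNA replication, mainly at active promoters, enhancers and gene bodies. The question was how much of each variant was found at these genes, and how newly made MacroH2A2 at them changed with time in ES cells and in mouse embryonic fibroblasts (MEFs).

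The series holds 11 ChIP-Seq libraries, 1 for each condition. All cells were of the strain 129 X C57bl/6. ES cells of the KH2 line carried the M2rtTA transactivator at ROSA26 and an HA-tagged histone under a TetO promoter downstream of Col1a1, and the targeted clones expressed the tagged histone from that cassette on top of the native one. Dox was given at 2 μg/ml. Anti-HA libraries cover HA-H3.3 in ES cells at 3 and 6 hours, HA-MacroH2A2 (HA-Macro) in ES cells that had no Dox or had it for 3, 6 or 12 hours, and HA-Macro in MEFs at 3, 6 and 12 hours. The MEFs were derived from E12.5 chimeric embryos, with host cells removed by puromycin, and ES cultures were depleted of their feeder MEFs by pre-plating before harvest. An antibody to MacroH2A2 itself was used on ES cells and on MEFs, which the labels give as the parental KH2 line and as wild type, untreated, and each of these libraries combines 2 replicates according to its label. The paper gives other Dox states for these cells, and these libraries are named by antibody and cell type alone. HA-Macro MEFs and HA-H3.3 ES cells without Dox are not analysed here, and background is known only from the no-Dox HA-Macro ES library.

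Each mapped interval was counted at its midpoint, identical intervals were counted 1 time, and counts were divided by the library's total (6448310 to 19869559 distinct intervals) to give p.p.m., a read count scaled to equal library size. A p.p.m. is thus a share of a library and not an amount of histone. The paper describes tagged histone as accumulating over the genome after Dox, and reads falling values at a site as falling relative enrichment. A lower p.p.m. at a later hour does therefore not by itself show loss of tagged histone. The paper describes the no-Dox library as mostly flat background, so an equal p.p.m. there is not an equal amount of HA-Macro. The paper also reports trace promoter signal in that library, which it regards as likely due to leaky HA-Macro expression. As an alternative it names artifactual isolation of open chromatin. The part of either in the no-Dox values given here was not tested. With 1 library per condition there is no replicate error and no test. All intervals are 95% intervals for counting error alone, exact Poisson for levels and exact binomial for ratios, and they leave out differences between cultures and precipitations. The HA-H3.3 and anti-MacroH2A2 intervals are 400 bp long, where the methods state 150 bp, so that their midpoints may lie off the fragment centers and positions in these libraries are less exact. A gene was called higher or lower in a pair of libraries when it was past 1.5-fold with at least 20 reads in the pair, and the share of all protein-coding genes called the same way is given beside each count as the background. The HA-Macro ES library at 3 hours stood apart in 1 respect, with 0.112% of its reads on chromosome Y against 0.0219% to 0.0244% in the other HA-Macro ES libraries. The share was 0.102% and 0.0673% in HA-H3.3 ES cells at 3 and 6 hours, 0.100% in ES cells and 0.0423% in MEFs with anti-MacroH2A2, and 0.0198% to 0.0226% in HA-Macro MEFs. The methods describe ES cells split onto separate plates, each induced at its own time point. They do not say, library by library, which plates and cultures the deposited data came from. The part of this difference in the results was not tested, it touches every value at 3 hours in HA-Macro ES cells, and the changes with time in ES cells are also given with the 6 hour library as the early time, an alternative chosen after the data were seen.

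The genes lie on chromosomes 2, 3, 4, 5, 6, 8, 12, 16 and 17, with Klf4 and Lin28a both on chromosome 4. In mm9, Pou5f1 spans chr17:35642982-35647721 on the plus strand, Sox2 chr3:34548927-34551383 on the plus strand, within the non-coding gene Sox2ot, and Nanog chr6:122657507-122664651 on the plus strand. Klf4 spans chr4:55540013-55545347 on the minus strand, Lin28a chr4:133559245-133574756 on the minus strand, and Zfp42 chr8:44380422-44392363 on the minus strand. Esrrb is the longest, from chr12:87702067-87862578 on the plus strand. Tbx3 spans chr5:120120678-120134733 on the plus strand, Sall4 chr2:168573832-168593443 on the minus strand and Dppa4 chr16:48283848-48294405 on the plus strand. The TSS window also overlaps another annotated gene at Sox2 (Sox2ot), Tbx3 (Gm2301), Lin28a (Gm13061) and Sall4 (Gm14261), and reads there cannot be given to one or the other. The promoters are of unlike composition. In the window of 600 bp to either side of the TSS, the observed over expected CpG ratio was 0.972 at Klf4, 0.890 at Tbx3 and 0.825 at Sox2, and between 0.292 (Esrrb) and 0.555 (Zfp42) at the other 7, beside a median of 0.533 over protein-coding genes.

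Sites of the pluripotency factors themselves were looked for in the promoters, from 250 bp before to 50 bp after the gene start on both strands. The POU octamer ATGCAAAT was found in 1 member, Zfp42, and in 1.73% of all protein-coding promoters, and the SOX motif CATTGT in 3 members (Nanog, Esrrb and Lin28a) and in 10.6% of all promoters. The KLF motif GGGTGTGG was in Zfp42 and in 3.69% of promoters, GGGCGTGG in Nanog and in 6.59%, and TATAAA in Sall4 and in 13.4%. The ESRRB motif TCAAGGTCA was in no member and in 0.358% of all promoters. Pou5f1 was the member with the most HA-Macro reads at its TSS in ES cells at 3 hours. Nanog and Zfp42 were the members with a match to each of a pair of motifs. The 250 bases upstream of the gene start are shown for these genes, with matches in capitals (mm9, 5′ to 3′ along the gene, chr17:35642732-35642981, chr6:122657257-122657506 and chr8:44392364-44392613).
Pou5f1: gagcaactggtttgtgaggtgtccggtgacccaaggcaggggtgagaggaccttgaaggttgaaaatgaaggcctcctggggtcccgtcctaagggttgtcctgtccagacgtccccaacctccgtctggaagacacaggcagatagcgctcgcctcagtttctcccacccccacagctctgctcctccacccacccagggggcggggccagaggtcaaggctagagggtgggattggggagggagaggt
Nanog: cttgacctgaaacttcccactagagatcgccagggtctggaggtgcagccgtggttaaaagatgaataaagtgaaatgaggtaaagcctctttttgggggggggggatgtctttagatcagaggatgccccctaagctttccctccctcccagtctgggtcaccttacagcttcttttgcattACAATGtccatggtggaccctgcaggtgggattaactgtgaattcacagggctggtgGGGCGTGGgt
Zfp42: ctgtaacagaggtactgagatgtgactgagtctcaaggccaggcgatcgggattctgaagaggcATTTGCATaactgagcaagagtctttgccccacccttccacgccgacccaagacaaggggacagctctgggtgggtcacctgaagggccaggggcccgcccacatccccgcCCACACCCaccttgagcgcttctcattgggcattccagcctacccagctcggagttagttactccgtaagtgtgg
In Nanog the SOX match lies on the opposite strand 67 bp upstream of the gene start and the KLF match 10 bp upstream. In Zfp42 the octamer lies 186 bp upstream and the KLF match 75 bp upstream, both on the opposite strand. A match is a run of letters and not a bound site, and the absence of one in Pou5f1 says only that these letters are not in this window. Reads that fit several places were placed at random by the authors, and the share of 32-base stretches found elsewhere in the genome was 0% in the TSS windows of 6 members, 2.08% at Pou5f1, 3.83% at Lin28a, 6.99% at Zfp42 and 16.6% at Dppa4.

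HA-H3.3 was found at the TSS of nearly all of these genes, with a higher share of reads at 6 than at 3 hours at all but Esrrb. At 6 hours 9 of the 10 lay above the median of 1.78 p.p.m. over all protein-coding genes, and at 3 hours 8 of 10 lay above the median of 1.24. Pou5f1, which encodes the POU factor Oct4 at the center of the network, went from 2.48 p.p.m. at 3 hours (16 reads, 1.42 to 4.03) to 5.64 at 6 hours (60 reads, 4.30 to 7.25). Sox2, the HMG box partner of Oct4, went from 2.17 (14 reads) to 4.98 (53 reads), and Tbx3, a T-box factor that acts in the same network, from 3.10 (20 reads) to 4.98 (53 reads). These 3 genes were the highest members at 6 hours, at percentiles from 90.3 to 93.6 of protein-coding genes. The homeobox factor Nanog had 1.71 and 3.38 p.p.m. at the 2 times, and the RNA-binding protein gene Lin28a, which blocks let-7 maturation, 2.02 and 3.57. Klf4 had 2.33 and 2.72 p.p.m., Dppa4 2.02 and 2.72, and Sall4, which encodes a zinc finger factor, 1.24 and 2.72. Zfp42 (Rex1), a widely used marker of ES cells, had 5 reads at 3 hours (0.775 p.p.m.) and 28 at 6 hours (2.63 p.p.m.). Esrrb, an orphan nuclear receptor, had 1.40 p.p.m. at its annotated gene start at 3 hours, above the median of all genes, and 1.31 at 6 hours, below it.

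From 3 to 6 hours of Dox, 7 of the 10 genes were called higher in HA-H3.3 and none lower, where 55.9% of 13292 protein-coding genes were called higher and 2.42% lower. The log2 ratio of 6 over 3 hours was 1.76 at Zfp42 (0.37 to 3.49), 1.20 at Sox2 (0.33 to 2.16) and 1.18 at Pou5f1 (0.37 to 2.08). The other called genes had intervals that include 0. These were Sall4 (1.13, −0.03 to 2.47), Nanog (0.99, −0.02 to 2.11), Lin28a (0.82, −0.12 to 1.86) and Tbx3 (0.68, −0.08 to 1.50). The summed reads of all 10 genes gave a log2 ratio of 0.85 (0.55 to 1.16), beside 0.58 for the reads at all protein-coding TSSs. In the regions from 5 to 50 kb to either side of the genes, HA-H3.3 was also higher at 6 hours, with a summed log2 ratio of 0.57 (0.52 to 0.63). Klf4 (0.23), Esrrb (−0.09) and Dppa4 (0.43) were not called. Nearly all members lay in the upper part of H3.3 levels, and among genes at or above the median at 6 hours, which the same library defines, 62.2% were called higher. Outside the TSS window, in the gene bodies, 6 of 10 were called higher, against 16.5% of all genes. Pou5f1 had the largest body ratio (1.51, 0.92 to 2.16), followed by Tbx3 (1.05, 0.70 to 1.41) and Esrrb (0.82, 0.70 to 0.93). At Pou5f1, 19.3% of 32-base stretches in exons also occur elsewhere in the genome.

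**Figure D1:**
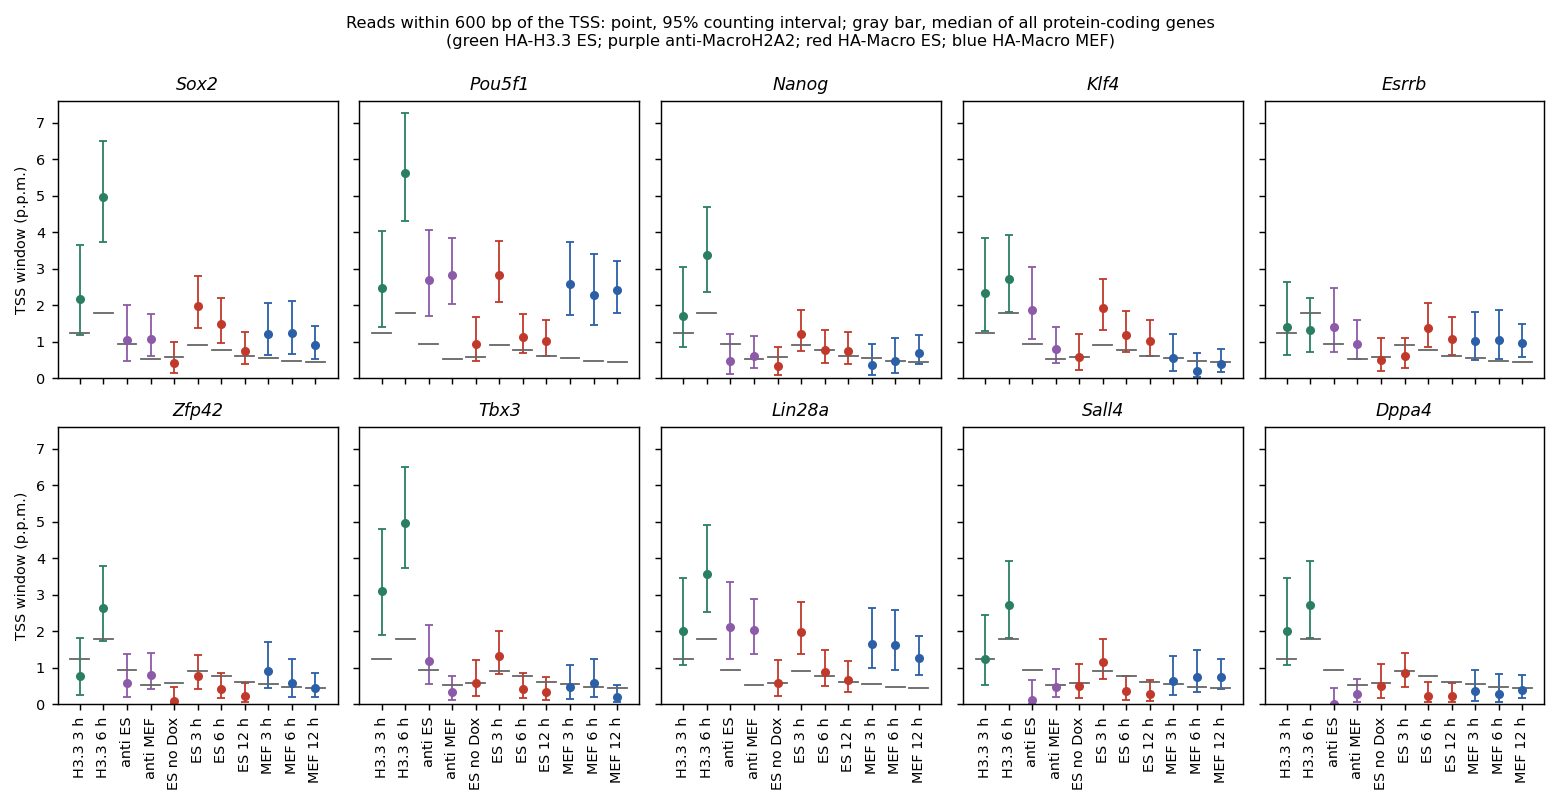
Reads within 600 bp of the TSS in p.p.m. (y axis) in each of the 11 libraries (x axis), 1 panel per gene, with 95% counting intervals and a gray bar at the median of all protein-coding genes. HA-H3.3 at 6 hours was highest at Pou5f1 (5.64 p.p.m.), and HA-Macro in ES cells (red) was higher at 3 hours than at 12 hours in all panels but that of Esrrb.

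Newly made HA-Macro was found at the TSS of most of these genes after 3 hours of Dox in ES cells. Without Dox, the 10 genes held between 0.0846 and 0.930 p.p.m. at the TSS, and 1 of them (Pou5f1) was above the median of 0.592 over all protein-coding genes. After 3 hours they held between 0.603 and 2.83 p.p.m., and 7 were above the median of 0.905. All 8 members with enough reads were called higher and none lower, where 67.4% of 12774 protein-coding genes were called higher and 2.55% lower. Of the called members, Tbx3 (1.16, −0.11 to 2.63), Sall4 (1.17, −0.21 to 2.79) and Dppa4 (0.73, −0.74 to 2.40) had intervals that include 0. The intervals of Sox2, Pou5f1, Nanog, Klf4 and Lin28a lay above 0. Among genes at or above the median HA-H3.3 level at 6 hours, 73.1% were called higher. The reads of the 10 genes together stood at a log2 ratio of 1.53 (1.12 to 1.962) over the no-Dox library, beside 0.64 for all protein-coding TSSs, and at 6 hours over no Dox the ratio was 0.71 (0.26 to 1.17), with 4 of 5 members called higher where 47.7% of 11531 genes were. At 12 hours over no Dox it was 0.32, with an interval that includes 0 (−0.15 to 0.80).

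Without Dox, Pou5f1 had 0.930 p.p.m., and after 3, 6 and 12 hours 2.83 (47 reads), 1.13 (19 reads) and 1.02 (18 reads). Its level at 3 hours lay at percentile 98.6 of protein-coding genes, and its p.p.m. at 6 hours was already close to that without Dox. Sox2 had 0.423 p.p.m. without Dox and 1.99, 1.49 and 0.735 after 3, 6 and 12 hours, with 33, 25 and 13 reads. Lin28a had 0.592 p.p.m. without Dox and then 1.99, 0.895 and 0.678. Klf4, a zinc finger factor that is also made in other tissues, had 0.592 and then 1.93, 1.19 and 1.02. These 4 genes held the most HA-Macro at 3 hours. At Tbx3 the values were 0.592 without Dox and 1.33, 0.418 and 0.339 after it, and at Sall4 0.508 and 1.15, 0.358 and 0.283. Nanog had 0.338 p.p.m. without Dox and 1.21, 0.776 and 0.735 after 3, 6 and 12 hours. Dppa4, a small chromatin protein of early embryos and ES cells, had 0.508 and then 0.844, 0.239 and 0.226. At Tbx3, Sall4 and Dppa4 the p.p.m. at 6 and 12 hours therefore lay below that of the no-Dox library, with counting intervals that overlap it. This compares shares of reads and not amounts of HA-Macro. Zfp42 had 1 read without Dox and 13, 7 and 4 reads after 3, 6 and 12 hours.

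Between 3 and 12 hours, the share of HA-Macro reads at the TSS went down at 9 of the 10 genes. Of the 8 with at least 20 reads in the pair, 7 were called lower and 1, Esrrb, was called higher, where 54.4% of 15192 protein-coding genes were called lower and 8.12% higher. Among genes at or above the median HA-H3.3 level at 6 hours, 66.7% were called lower. Sall4 had the lowest log2 ratio of 12 over 3 hours (−2.02, −3.80 to −0.55) and Tbx3 the next (−1.97, −3.56 to −0.62). The ratio was −1.55 at Lin28a (−2.64 to −0.56), −1.48 at Pou5f1 (−2.35 to −0.67) and −1.44 at Sox2 (−2.49 to −0.47). Sall4 and Tbx3 thus lay at percentiles 3.26 and 3.72 of all genes with enough reads. Klf4 (−0.92, −1.84 to −0.05) and Nanog (−0.72, −1.84 to 0.36) changed less, and the interval of Nanog includes 0. Zfp42 and Dppa4 had fewer than 20 reads in the pair and were not called, with ratios of −1.79 (−3.87 to −0.10) and −1.90 (−3.96 to −0.23).

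Summed over the 10 genes, the log2 ratio of 12 over 3 hours was −1.21 (−1.55 to −0.88), beside −0.54 for all protein-coding TSSs. From 6 to 12 hours it was −0.39 (−0.76 to −0.02), and 1 of 6 genes with enough reads was called lower (Sox2, −1.02, −2.11 to −0.00), where 30.8% of 14266 protein-coding genes were. The median log2 ratio from 6 to 12 hours was −0.29 over these 6 genes and −0.30 over all genes. Most of the difference at the TSS therefore lay between the 3 and 6 hour libraries, where the summed ratio of 6 over 3 hours was −0.82 (−1.13 to −0.51). In the regions from 5 to 50 kb to either side of the genes, the summed ratio of 12 over 3 hours was 0.18 (0.14 to 0.22), although the flanks of Nanog (−0.28, −0.41 to −0.16) and Lin28a (−0.23, −0.36 to −0.10) were lower at 12 hours. Between 6 and 12 hours the summed flanks were slightly lower (−0.09, −0.13 to −0.05), and 9 of 10 had a ratio below 0. At 3 hours, read density at the TSS was above that of the flanks at all 10 genes, and at 12 hours at 5 of them, as it was without Dox. Over all protein-coding genes the share was 73.6% at 3 hours, 58.7% at 12 hours and 63.7% without Dox.

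**Figure D2:**
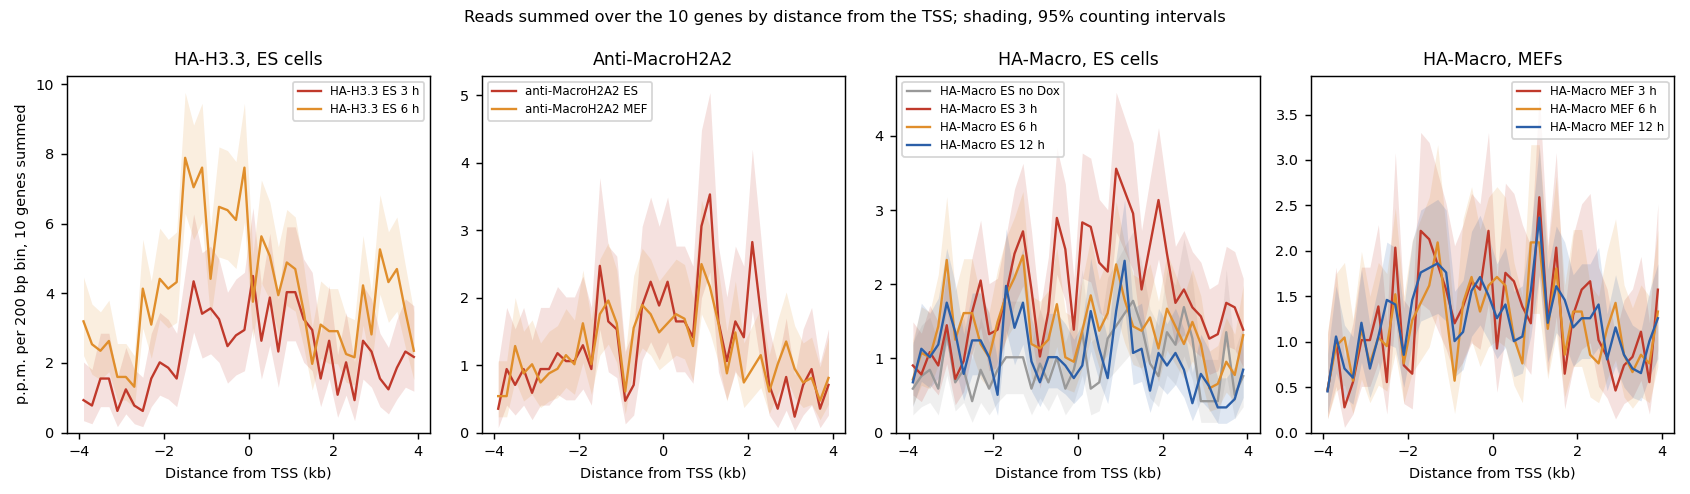
Reads summed over the 10 genes in 200 bp bins (y axis, p.p.m.) by distance from the TSS in kb (x axis, downstream to the right), for HA-H3.3, anti-MacroH2A2, and HA-Macro in ES cells and in MEFs, with 95% counting intervals shaded. HA-Macro in ES cells at 3 hours was raised on both sides of the TSS and highest 900 bp downstream (3.56 p.p.m.), where the 12 hour library had 1.64 and the no-Dox library 1.44, and the 3 libraries from MEFs lay close together.

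The zones from 1 to 4 kb to either side of the TSS are wider than the TSS window and held more reads, and their order differed upstream and downstream. Within 600 bp of the TSS, the 10 genes together held 4.23 p.p.m. per kb of HA-Macro without Dox. After 3, 6 and 12 hours they held 12.2, 6.91 and 5.27 there. From 1 to 4 kb downstream of the TSS, the 10 genes together held 5.30 p.p.m. per kb of HA-Macro without Dox, 10.2 after 3 hours (9.32 to 11.1), 6.19 after 6 hours (5.52 to 6.91) and 4.26 after 12 hours (3.72 to 4.85). From 4 to 1 kb upstream they held 4.00 without Dox and 7.38, 7.42 and 6.01 after 3, 6 and 12 hours. Upstream, the 6 hour level was thus equal to that at 3 hours within counting error, while downstream it was lower. In the same downstream zone of the MEF libraries the values were 6.04, 5.74 and 6.06 p.p.m. per kb at 3, 6 and 12 hours. HA-H3.3 had its highest bin 1500 bp upstream at 6 hours (7.89 p.p.m.), and at 6 hours held 19.3 p.p.m. per kb upstream and 16.9 downstream, beside 28.8 within 600 bp of the TSS.

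The gene bodies outside the TSS window gave more reads and a clearer change. At 3 hours all 10 bodies were called higher than without Dox, where 40.3% of 18998 genes were called higher, with log2 ratios from 0.62 (Tbx3) to 1.62 (Pou5f1). At 6 hours 1 of 10 was called higher than without Dox, where 17.8% of 18945 genes were, with a median log2 ratio of 0.27, and at 12 hours 0 of 10, where 15.7% of 18967 genes were, with a median of −0.22. The summed ratio at 12 hours was 0.18 (0.08 to 0.28), of opposite sign to the median, since most of the reads are those of Esrrb, whose body stood at 0.40 (0.28 to 0.52). Between 3 and 12 hours, 9 of 10 bodies were called lower, where 36.5% of 19145 genes were called lower, and the interval lay below 0 at all 10. The median log2 ratio was −1.27 over the members and −0.24 over all genes, and the summed ratio, in which Esrrb weighs most, was −0.71 (−0.79 to −0.64). Pou5f1 had the lowest ratio (−1.68, −2.29 to −1.10, from 99 reads to 33), and Klf4 (−1.46, −2.01 to −0.93), Nanog (−1.32, −1.82 to −0.84) and Sall4 (−1.29, −1.55 to −1.03) came next. Zfp42 (−1.28), Lin28a (−1.25), Tbx3 (−1.20), Dppa4 (−1.20) and Sox2 (−1.05) lay close behind. Esrrb, whose body holds 2109 reads at 3 hours, had a ratio of −0.41 (−0.51 to −0.32) and was the member not called.

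The body of Pou5f1 held 0.470 p.p.m. per kb without Dox and 1.44, 0.721 and 0.450 after 3, 6 and 12 hours, and that of Sall4 held 0.583 and then 1.31, 0.662 and 0.538. In both, the p.p.m. at 12 hours equaled that of the no-Dox library within counting error, which compares shares of reads and not amounts of HA-Macro. From 6 to 12 hours, 4 of 10 bodies were called lower (Klf4, Zfp42, Pou5f1 and Lin28a), where 2.97% of 19106 genes were called lower, and the median log2 ratio was −0.47 over the members and −0.07 over all genes. Klf4 went from 71 reads at 6 hours to 42 at 12 hours (−0.84, −1.42 to −0.27) and Zfp42 from 105 to 68 (−0.71, −1.17 to −0.25). At 3 members the interval from 6 to 12 hours includes 0, and the Sox2 body had a ratio of 0.17. In exons, 32-base stretches that occur elsewhere made up 41.9% at Zfp42, 31.6% at Nanog, 21.5% at Klf4, 57.2% at Dppa4, 0.849% at Sall4 and 0.0559% at Tbx3, and the part of such reads in the changes was not tested.

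**Figure D3:**
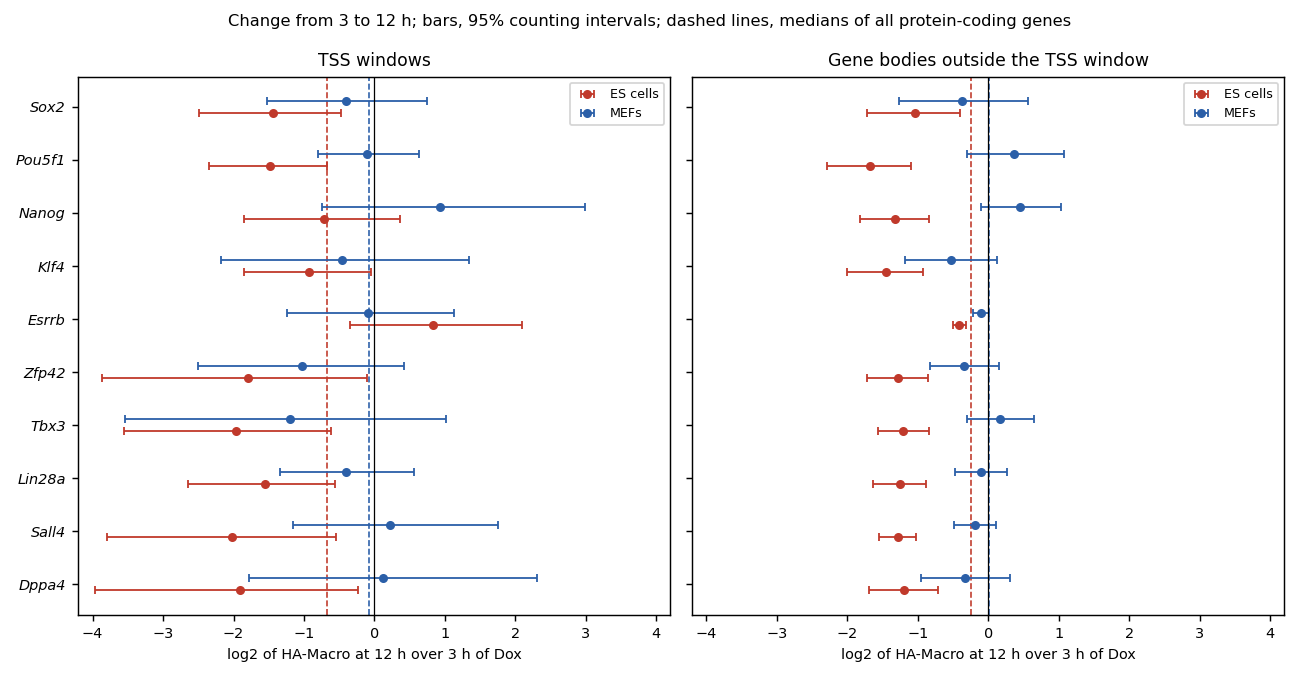
log2 of HA-Macro at 12 hours over 3 hours of Dox (x axis) for each gene (y axis) in ES cells (red) and MEFs (blue), at the TSS window (left) and in the gene body outside it (right), with 95% counting intervals and dashed lines at the medians of all protein-coding genes with at least 20 reads in the pair. In ES cells all 10 gene bodies lie below 0 with their intervals, from −1.68 at Pou5f1 to −0.41 at Esrrb, and in MEFs all 10 intervals include 0.

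Esrrb went the other way at its gene start, and this depended on the start chosen. At the gene start it had 0.508 p.p.m. without Dox and 0.603 (10 reads), 1.37 (23 reads) and 1.07 (19 reads) after 3, 6 and 12 hours, a log2 ratio of 12 over 3 hours of 0.83 (−0.34 to 2.10). Of its 7 annotated transcripts, 4 start 60527 bp further on, within the gene, at chr12:87762594. There it had 0.677 p.p.m. without Dox and 1.39, 0.895 and 0.904 after 3, 6 and 12 hours (−0.62, −1.64 to 0.37). At a start 109000 bp into the gene HA-Macro went from 34 reads at 3 hours to 6 at 12 hours (−2.60, −4.14 to −1.33), and at one 143292 bp into it from 21 to 8 (−1.49, −2.87 to −0.25). HA-H3.3 at 6 hours was 1.31 p.p.m. at the gene start, 2.07 at the second start, 4.13 at the third and 6.39 at the last. Of the inner starts of Esrrb, the 2 with the most HA-H3.3 were those with the larger declines of HA-Macro. Without Dox they held 18 and 11 reads, and 3 hours over no Dox was 0.43 (−0.44 to 1.34) and 0.44 (−0.67 to 1.64). Inner starts of Pou5f1 had the other order, with −2.03 (−3.13 to −1.04) at 1445 bp and −1.09 (−2.53 to 0.21) at 2768 bp. HA-H3.3 was 1.50 and 5.35 p.p.m. at these. So did those of Tbx3, with −1.09 (−2.79 to 0.43) at 4776 bp and −0.83 (−1.76 to 0.06) at 9580 bp. HA-H3.3 was 0.939 and 5.54 p.p.m. there, and both intervals include 0. At Sall4, a start 2697 bp into the gene gave a ratio of −1.78 (−3.05 to −0.66), from 29 reads at 3 hours to 9 at 12 hours, and one 12000 bp into it a ratio of −0.86 (−1.67 to −0.08), from 39 to 23. HA-H3.3 at 6 hours was 4.04 and 2.54 p.p.m. at these, so that the start with more HA-H3.3 had the larger decline. Within each of Esrrb, Pou5f1, Tbx3 and Sall4 the intervals of the inner starts overlap, so counting error does not settle these orders.

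HA-Macro at the TSS in MEFs showed no called change with time. Of the 5 members with enough reads at 3 and 12 hours, none was called in either direction, where 18.5% of 7172 protein-coding genes were called lower and 13.5% higher. The summed log2 ratio of 12 over 3 hours was −0.21 (−0.57 to 0.15), beside −0.18 over all protein-coding TSSs. With windows of 1000 bp to either side, 2 of 8 members were called lower and 1 higher, where 19.2% of 13873 genes were called lower and 11.1% higher. Pou5f1 held 2.59, 2.28 and 2.42 p.p.m. at 3, 6 and 12 hours (28, 24 and 48 reads), a ratio of −0.10 (−0.80 to 0.63). It was the highest member at each time, at percentiles from 98.8 to 99.3. Lin28a came next with 1.66, 1.62 and 1.26 p.p.m., and then Sox2 with 1.20, 1.24 and 0.906. Esrrb had 1.02, 1.05 and 0.956, and Sall4 0.647, 0.761 and 0.755. Klf4 (0.555, 0.190 and 0.403), Tbx3 (0.462, 0.571 and 0.201), Nanog (0.370, 0.476 and 0.705), Zfp42 (0.925, 0.571 and 0.453) and Dppa4 (0.370, 0.285 and 0.403) were near or below 1 p.p.m. with 2 to 14 reads each. In the gene bodies 0 of 10 were called lower, where 2.99% of 18675 genes were, and the interval included 0 in all 10. Their median log2 ratio was −0.15, and their summed ratio −0.10 (−0.19 to −0.01).

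The change from 3 to 12 hours was further down in ES cells than in MEFs in sum and at most members. The difference of the log2 ratios, ES cells minus MEFs, was −0.998 (−1.47 to −0.52) for the summed TSS windows, beside −0.36 over all protein-coding TSSs. At the TSS of Esrrb the difference had the other sign (0.92, −0.62 to 2.46). For single TSS windows the counting interval of the difference left out 0 at Pou5f1 (−1.38, −2.41 to −0.35) and Sall4 (−2.24, −4.16 to −0.32), and lay below 0 in 5.16% of 21724 genes with reads in all 4 libraries. For the bodies it left out 0 at 9 of 10 members, all but Sox2 (−0.68, −1.73 to 0.38), where it lay below 0 in 35.4% of 19436 genes with a median of −0.26, and was largest at Pou5f1 (−2.05, −2.91 to −1.18) and Nanog (−1.78, −2.49 to −1.06). With 6 hours as the early time the difference was −0.29 (−0.81 to 0.22) for the summed TSS windows, where the interval included 0 at all 10 members, beside a sum of −0.10 over all genes, of which 2.06% had an interval below 0. In the bodies it was −0.29 (−0.41 to −0.16) in sum, and left out 0 at 6 of 10 members, beside a sum of −0.01 over all genes, of which 4.35% had an interval below 0. At these 6 it went from −1.49 (−2.29 to −0.69) at Nanog to −0.18 (−0.33 to −0.03) at Esrrb. Among the others Sox2 was at 0.80 (−0.31 to 1.90) and Dppa4 at −0.10 (−0.90 to 0.70). Pou5f1 was at −0.90 (−1.80 to −0.01) there and Sall4 at 0.00 (−0.40 to 0.40). With 1 library per condition the difference cannot be set against the spread between cultures. The paper reports a further HA-Macro time course in ES cells, undersequenced and not analysed here. In it the average TSS peak over all named genes also diminished from 3 to 6 to 12 hours. The paper does not give that course for these members singly.

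Levels in MEFs and in ES cells were then compared at the same hour of Dox. At 3 hours, 5 of 9 members were called lower in MEFs (Sox2, Nanog, Klf4, Tbx3 and Sall4) and 1, Esrrb, higher, where 63.9% of 12602 protein-coding genes were called lower and 11.4% higher. The intervals of Sox2 (−0.73, −1.78 to 0.24), Sall4 (−0.82, −2.32 to 0.49) and Esrrb (0.75, −0.62 to 2.15) include 0, and Sox2 was at 0.35 with windows of 300 bp and Esrrb at −0.45 at its second start. At 6 hours 1 of 5 was called lower (Klf4) and 2 higher (Pou5f1 and Lin28a), against 47.9% and 12.3% of 10408 genes. At 12 hours 1 of 7 was called lower (Klf4) and 3 higher (Pou5f1, Lin28a and Sall4), against 37.9% and 18.1% of 12102 genes. The intervals of Lin28a include 0 at 6 hours (0.85, −0.24 to 1.96) and at 12 hours (0.89, −0.15 to 2.02), as does that of Sall4 at 12 hours (1.42, −0.12 to 3.23). The summed log2 ratio of MEFs over ES cells went from −0.58 (−0.92 to −0.24) at 3 hours to 0.12 (−0.27 to 0.51) at 6 hours and 0.42 (0.06 to 0.78) at 12 hours, while that of all protein-coding TSSs was −0.64, −0.38 and −0.28. Dividing each window by the library's own reads in the flanks gave 0.59 at 6 hours.

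Klf4 had the lowest ratio of the 10 genes at each hour, and the highest was at Esrrb at 3 hours (0.75) and at Sall4 at 6 (1.09, −0.63 to 2.89) and 12 hours. Pou5f1, with the most reads, stood at a log2 ratio of 1.01 (0.08 to 1.96) at 6 hours and 1.25 (0.44 to 2.12) at 12 hours, with 48 reads in MEFs and 18 in ES cells at 12 hours. Klf4 was lower in MEFs at all 3 hours, with ratios of −1.80 (−3.35 to −0.52), −2.65 (−5.79 to −0.61, from 2 reads in MEFs) and −1.34 (−2.75 to −0.06). In the gene bodies the difference at Klf4 was −0.93 (−1.51 to −0.38) at 3 hours, −1.09 (−1.86 to −0.37) at 6 hours and −0.00 (−0.64 to 0.63) at 12 hours. Of the 10 bodies, 8 were called lower in MEFs at 3 hours, where 52.7% of all genes were, and all 10 intervals lay below 0, among them Pou5f1 (−1.26, −1.93 to −0.63), Nanog (−1.03, −1.59 to −0.50) and Lin28a (−0.36, −0.72 to −0.01). At 6 hours 3 were called lower (Klf4, Nanog and Zfp42), where 34.7% of all genes were, and 0 higher. At 12 hours none was called lower and 3 were called higher, where 4.98% of all genes were. The bodies of Pou5f1 (0.79, 0.16 to 1.44), Nanog (0.75, 0.25 to 1.26) and Lin28a (0.78, 0.41 to 1.17) were those higher in MEFs at 12 hours, at percentiles from 97.0 to 97.5 of all genes.

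The antibody to MacroH2A2 reads all of the variant and not only the newly made tagged form. With it, the summed share of reads at these genes differed little between the cell types, while single genes went both ways. The paper reports higher MacroH2A2 levels in MEFs than in ES cells, so a like share does not mean a like amount. The 10 TSS windows together held 11.5 p.p.m. in ES cells (98 reads, 9.36 to 14.0) and 10.2 in MEFs (151 reads, 8.62 to 11.9). Their summed log2 ratio of MEFs over ES cells was −0.18 (−0.55 to 0.20), while all protein-coding TSSs together gave −0.74. Of the 5 members with enough reads 1, Klf4, was called lower and 0 higher, where 65.2% of 9359 protein-coding genes were called lower and 3.64% higher.

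Pou5f1 had 2.70 p.p.m. in ES cells (23 reads) and 2.83 in MEFs (42 reads), at percentiles 96.0 and 99.6 of protein-coding genes, and Lin28a 2.12 (18 reads) and 2.02 (30 reads), at percentiles 88.3 and 98.0. They were the highest members in both cell types, as they were with anti-HA in MEFs. Sox2 had 1.06 and 1.08 p.p.m., Esrrb 1.41 and 0.944, and Nanog 0.470 and 0.607. Klf4 went from 1.88 p.p.m. in ES cells (16 reads) to 0.809 in MEFs (12 reads), a log2 ratio of −1.22 (−2.43 to −0.05), and Tbx3 from 1.18 (10 reads) to 0.337 (5 reads), −1.80 (−3.70 to −0.12). At Dppa4 there were 0 reads in ES cells, which allows a level of up to 0.353 p.p.m. by the floor of 3 reads (0.434 by the 2-sided interval), and 0.270 p.p.m. in MEFs. Sall4 had 1 read in ES cells and 7 in MEFs, with a ratio of 2.01 and an interval from −0.96 to 7.50. In the gene bodies 2 of 10 were called lower (Klf4 and Pou5f1), against 28.5% of 18113 genes, and 1 higher (Lin28a), against 3.78%. The interval of Pou5f1 includes 0 (−0.63, −1.69 to 0.44, 16 reads in ES cells and 18 in MEFs). Klf4 was at percentile 0.447 there (−1.60, −2.21 to −1.02, 68 reads in ES cells and 39 in MEFs), and Lin28a at percentile 97.7 (0.74, 0.23 to 1.27). Klf4 was thus lower in MEFs with both antibodies at the TSS, and in the body with anti-MacroH2A2 and with anti-HA at 3 and 6 hours but not at 12 hours. Among genes with enough reads, its TSS lay at percentile 31.4 with anti-MacroH2A2. With anti-HA the TSS lay at percentiles 24.3, 2.11 and 12.2 at 3, 6 and 12 hours, and the body at 42.1 and 5.43 at 3 and 6 hours.

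**Figure D4:**
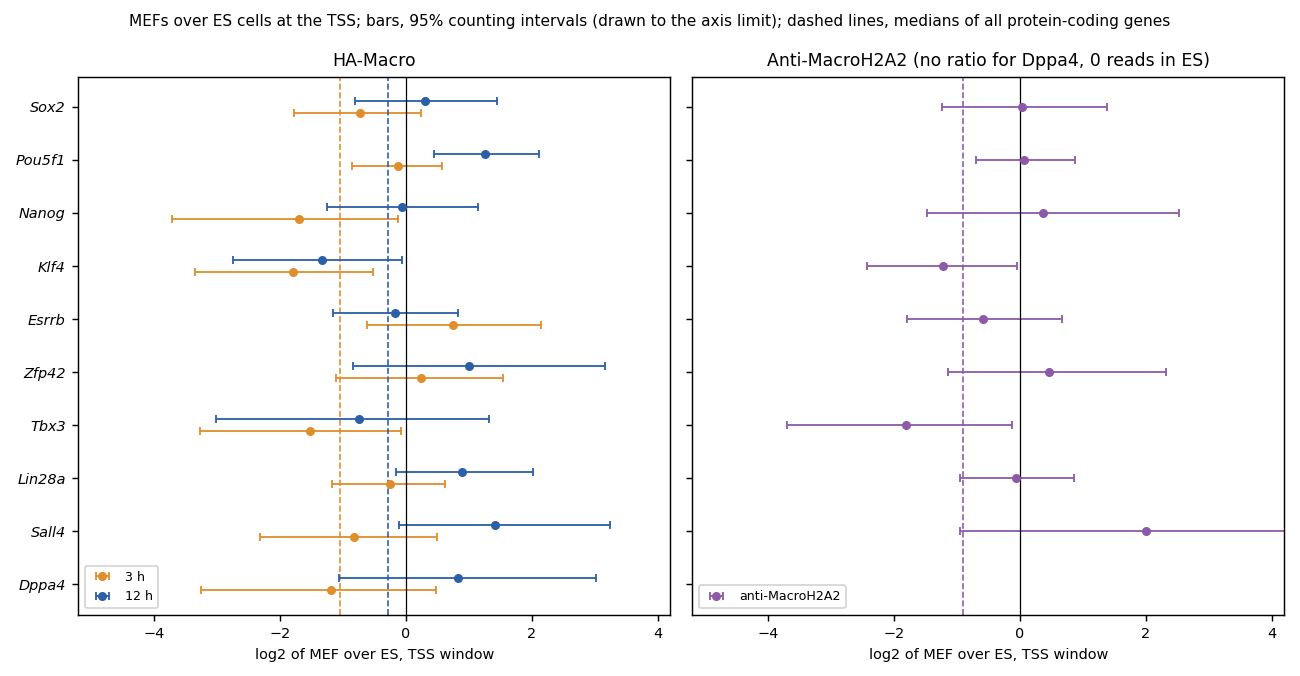
log2 of MEFs over ES cells at the TSS window (x axis) for each gene (y axis), for HA-Macro at 3 and 12 hours of Dox (left) and anti-MacroH2A2 (right), with 95% counting intervals and dashed lines at the medians of all protein-coding genes with at least 20 reads in the pair. In the anti-MacroH2A2 panel 7 of the 9 plotted genes lie above the dashed line, and Klf4 and Tbx3 lie below it, while HA-Macro at Pou5f1 was at −0.13 at 3 hours and 1.25 at 12 hours. With anti-MacroH2A2, the plotted genes Nanog, Zfp42, Tbx3 and Sall4 had fewer than 20 reads in the pair.

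Away from the TSS, each locus was scanned in windows of 1 kb from 50 kb before to 50 kb after the gene, leaving out 2 kb to either side of the gene start, for the window with the most HA-H3.3 reads at 6 hours and for that with the most HA-Macro reads in ES cells at 3 hours. The HA-H3.3 window was over 5 times the median window of its locus at 8 genes, and the HA-Macro window at 0 of 10. The 8 windows are therefore rich in HA-H3.3 at 6 hours by choice, and only the other libraries bear on them. They lie 8.5 kb downstream of the gene start at Nanog (chr6:122665507-122666506, intergenic), 17.8 kb downstream at Klf4 (chr4:55527013-55528012, intergenic) and 15.5 kb downstream at Sox2 (chr3:34563927-34564926, over an exon of Sox2ot). Those of Dppa4 (chr16:48319848-48320847, 36.5 kb downstream) and Lin28a (chr4:133617245-133618244, 43 kb upstream) are also intergenic. The other 3 lie in the gene itself, 137.5 kb into Esrrb in an intron (chr12:87839067-87840066), 10.5 kb into Tbx3 over an exon (chr5:120130678-120131677) and 3.5 kb into Pou5f1 over an exon (chr17:35645982-35646981).

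The 300 bases with the most HA-H3.3 midpoints at 6 hours are shown for the windows of Nanog, which had the most reads, of Klf4, which holds both KLF motifs, and of Sox2, which holds a SOX motif (mm9, plus strand, matches in capitals, chr6:122665795-122666094, chr4:55527678-55527977 and chr3:34564358-34564657).
Nanog window: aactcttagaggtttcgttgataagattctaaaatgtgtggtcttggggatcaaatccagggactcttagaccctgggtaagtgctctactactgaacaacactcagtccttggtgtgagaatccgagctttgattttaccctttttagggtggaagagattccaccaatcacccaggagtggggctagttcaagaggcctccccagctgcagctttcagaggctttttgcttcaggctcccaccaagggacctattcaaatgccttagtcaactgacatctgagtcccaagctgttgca
Klf4 window: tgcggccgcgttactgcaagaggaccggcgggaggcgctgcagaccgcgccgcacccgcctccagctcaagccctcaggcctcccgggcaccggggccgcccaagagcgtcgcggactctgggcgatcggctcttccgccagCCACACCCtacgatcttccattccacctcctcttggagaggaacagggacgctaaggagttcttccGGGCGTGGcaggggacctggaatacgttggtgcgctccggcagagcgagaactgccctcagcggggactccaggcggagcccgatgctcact
Sox2 window: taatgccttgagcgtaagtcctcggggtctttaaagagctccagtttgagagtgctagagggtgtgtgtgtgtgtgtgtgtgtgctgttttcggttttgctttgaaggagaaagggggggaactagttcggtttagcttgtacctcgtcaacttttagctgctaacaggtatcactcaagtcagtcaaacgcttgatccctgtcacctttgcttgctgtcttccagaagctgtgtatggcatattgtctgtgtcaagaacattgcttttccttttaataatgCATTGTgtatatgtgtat
In the whole windows of 1 kb, SOX motifs were in those of Sox2, Pou5f1, Nanog and Dppa4, where 49.3% of all 1 kb windows of the genome hold one. The POU octamer was in that of Pou5f1 (8.52% of all windows), and GGGTGTGG and GGGCGTGG were in those of Klf4 and Lin28a (5.88% and 2.24% of all windows). The windows of Esrrb and Tbx3 held none of the 6 motifs.

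The same windows were rich in HA-H3.3 at 3 hours, which the choice did not use. All 8 were above the median of their locus and 7 were among the top 1% of all 1 kb windows of the genome. The Nanog window held 3.72 p.p.m. at 3 hours (24 reads, 2.38 to 5.54) and 8.64 at 6 hours (92 reads), where the median window of the locus held 0.620 and 1.22. The Klf4 window held 2.17 p.p.m. at 3 hours (14 reads) and 5.82 at 6 hours (62 reads), and the Sox2 window 1.40 (9 reads) and 4.60 (49 reads). HA-Macro was not enriched to this degree. Summed over the 8 windows, HA-H3.3 at 3 hours was 4.87 times the summed locus medians (4.11 to 5.72), while HA-Macro in ES cells was 1.55 times (1.29 to 1.85) at 3 hours, 1.36 times at 6 hours and 1.02 times (0.808 to 1.27) at 12 hours. Without Dox the same windows were at 1.64 times (1.26 to 2.09), so that, against their loci, the windows held no more HA-Macro at 3 hours than background. Anti-MacroH2A2 gave 1.61 times in both ES cells and MEFs.

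Single windows differed in HA-Macro. The Nanog window had 8 reads without Dox, 14 and 13 reads at 3 and 6 hours and 1 read at 12 hours in ES cells (12 over 3 hours, log2 −3.90, −9.30 to −1.18), and 4, 5 and 10 reads in MEFs. The Klf4 window had 8 reads without Dox and 3, 9 and 9 reads after 3, 6 and 12 hours. The Tbx3 window was the only one of the 8 in the top 1% for HA-Macro at 3 hours, with 1.69 p.p.m. (28 reads), but it also held 1.27 p.p.m. without Dox (15 reads). At Esrrb, anti-MacroH2A2 went from 2 reads in ES cells to 19 in MEFs (2.45, 0.39 to 5.59). Over the 8 windows the log2 ratio of HA-Macro at 12 over 3 hours was −0.69 (−1.12 to −0.27) in ES cells and 0.18 (−0.31 to 0.68) in MEFs, and at 12 over 6 hours −0.59 (−1.02 to −0.17) and 0.08 (−0.40 to 0.58).

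**Figure D5:**
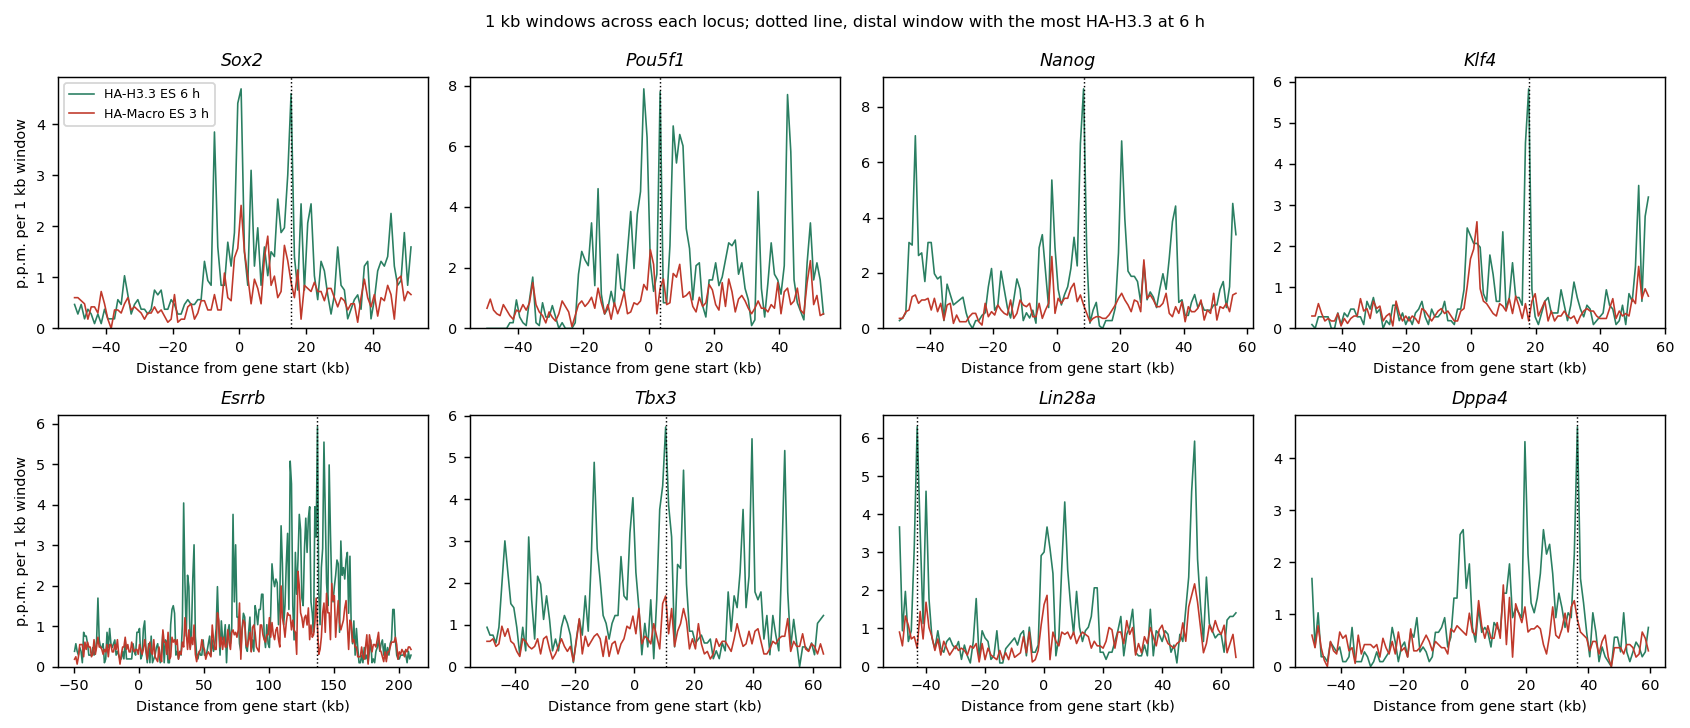
Reads per 1 kb window in p.p.m. (y axis) by distance from the gene start in kb (x axis, along the gene) for HA-H3.3 at 6 hours (green) and HA-Macro in ES cells at 3 hours (red) at the 8 genes with a named distal window, marked by the dotted line. HA-H3.3 reached 8.64 p.p.m. in the Nanog window and 5.82 in the Klf4 window, where HA-Macro held 0.844 and 0.181 p.p.m.

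Other genes of the pluripotency network were also mostly lower in HA-Macro at 12 than at 3 hours. Of 46 further genes listed, 44 had an entry in the annotation, and 30 of the 39 with enough reads were called lower and 2 higher in HA-Macro from 3 to 12 hours in ES cells, with a median log2 ratio of −1.001 beside −0.68 over all genes, of which 54.4% were called lower and 8.12% higher. From 6 to 12 hours 14 of 36 were called lower, beside 30.8% of all genes, with a median of −0.48. The lowest were Tdgf1, a co-receptor for Nodal (−2.26, −4.29 to −0.66), Klf5, a factor related to Klf4 (−2.03, −3.13 to −1.04), and Fbxo15 (−1.94, −3.73 to −0.46). The 2 called higher were the nuclear receptor gene Nr5a2 (0.75, −0.44 to 2.03) and Otx2, which marks the exit from the naive state (0.61, −0.77 to 2.08), both with intervals that include 0. In MEFs 4 of 23 were called lower (17.4%) and 2 higher, close to the 18.5% and 13.5% of all genes. With anti-MacroH2A2, 15 of 27 were called lower in MEFs than in ES cells and 1 higher, beside 65.2% and 3.64% of all genes, with a median of −0.90, equal to that of all genes, where the members had a median of −0.07 over 5 genes. Klf2 (−2.02, −3.13 to −1.0025), Tcf7l1 (−1.94, −3.18 to −0.80) and Tet2 (−1.72, −3.07 to −0.47) were lowest, and L1td1 (0.71, −0.59 to 2.20) was the one called higher.

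Genes of fibroblasts and of other lineages, which the feeder cells or differentiating cells of the cultures could hold, were set beside them, though a chromatin assay does not tell which cells a read came from. From 3 to 12 hours in ES cells, 13 of 22 fibroblast genes with enough reads (36 listed) were called lower (59.1%), with a median of −0.73, close to the 54.4% and −0.68 of all genes. Of the developmental regulators (39 matched), 7 of 30 were called lower (23.3%), with a median of −0.17. Between 6 and 12 hours 10 of 21 fibroblast genes and 4 of 27 developmental regulators were called lower, beside 30.8% of all genes. With anti-MacroH2A2, 10 of 13 fibroblast genes were called lower in MEFs than in ES cells (76.9%, median −0.92) and 12 of 32 developmental regulators (37.5%, median −0.45), beside 65.2% and −0.90 for all genes. Only 13 protein-coding genes had at least 20 reads in every library, and the one nearest to the mean of these 10 genes, Clcn4-2, lay at a Euclidean distance of 7.25 on the log2 scale over the 11 libraries.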

How the data were processed

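The deposited files hold 1 line for each mapped interval, with chromosome, first base and last base and no score, strand or count column. Per the labels and the methods, the authors merged reads of identical sequence before mapping and kept the number of times each occurred. Mapping was to mm9, for which the submitters' processing notes name Bowtie 1.0, allowing 1 mismatch. The authors kept 1 random location for reads with several, and extended reads to 150 bp. Their counts thus hold repeated reads, where identical intervals were counted 1 time here. The HA-H3.3 and anti-MacroH2A2 intervals are 400 bp long. Midpoints were counted in all libraries, and those of the longer intervals may lie off the fragment centers.

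Distinct intervals of the autosomes, X and Y were counted within 600 bp of each gene start, in the gene body outside that window, from 5 to 50 kb to either side and in 1 kb windows, and scaled to p.p.m. (6448310 to 19869559 intervals per library). Ratios were computed for 8 main comparisons at the TSS and, chosen after the data were seen, for 6 and 12 hours over no Dox, 6 over 3 hours and 12 over 6 hours in ES cells and 12 over 6 hours in MEFs. With 1 library per condition no test was possible, and intervals cover counting error only. Differences of 2 log2 ratios have intervals from a normal approximation. Repeated stretches are 32-base stretches found at another place in mm9. Motifs and sequences were read from mm9.

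The text names the 10 genes, distal windows over 5 times their locus median, and from the wider list the 3 lowest and up to 3 highest among called genes. Likeness was the Euclidean distance of log2 p.p.m. to the mean of the members over genes with 20 reads in every library. The members and lists were chosen with earlier results of these data known. Python 3.11.15, numpy 2.4.6, scipy 1.17.1, pandas 2.3.3, numba 0.67.0 and matplotlib 3.10.9 were used, and counting and ratios were tested on simulated data. Alternatives are given in the closing section.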

Additional observations from a re-analysis of the deposited data

Results flagged for a closer look

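The change of HA-Macro from 3 to 12 hours of Dox differed between ES cells and MEFs beyond counting error at several members, given here as the log2 ratio in ES cells minus that in MEFs. At the TSS the difference was −1.38 at Pou5f1, −2.24 at Sall4 and −0.998 for the reads of the 10 genes together. It was −0.36 over all protein-coding TSSs, and its interval lay below 0 in 5.16% of 21724 genes. In the gene bodies it was −2.05 at Pou5f1, −1.78 at Nanog, −1.36 at Tbx3, −1.14 at Lin28a and −1.10 at Sall4. It was −0.94 at Zfp42, −0.92 at Klf4, −0.86 at Dppa4 and −0.31 at Esrrb, and −0.61 for the 10 bodies together. Over the bodies of all genes the sum was −0.25, and the interval lay below 0 in 35.4% of 19436 genes. From 6 to 12 hours the sums were −0.29 (−0.81 to 0.22) at the TSS and −0.29 (−0.41 to −0.16) in the bodies. Each difference from 3 hours rests on 1 library per condition and on the ES library at 3 hours, whose share of reads on chromosome Y (0.112%) was above that of the other HA-Macro libraries and near that of HA-H3.3 ES cells at 3 hours (0.102%), and its part in these differences was not tested.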

How the results depend on the processing

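Of 86 summed ratios under the alternatives, 84 moved by less than their counting interval, and of 821 single-gene ratios 808 did. The exceptions among summed ratios were HA-Macro in ES cells from 6 rather than 3 hours (−0.39) and MEFs over ES cells at 6 hours divided by the flanks (0.59). Direction turned at Sox2 for MEFs over ES cells at 3 hours (0.35) and at Sall4 for HA-H3.3 at 6 over 3 hours (−0.14) with 300 bp windows, and at Esrrb for 12 over 3 hours in ES cells with the 6 hour library (−0.35) and at its second start (−0.62, and −0.45 for MEFs over ES cells at 3 hours). Of 204 member counts 40 moved by over 1.5 times. With 300 bp windows 3 genes were called higher at 3 hours than without Dox, 2 lower and 0 higher from 3 to 12 hours in ES cells, and for MEFs over ES cells 1 lower and 0 higher at 3 hours, 0 lower and 1 higher at 6 hours and 0 lower and 1 higher at 12 hours. With 1000 bp windows 2 were lower and 1 higher in MEFs with time, 0 higher for MEFs over ES cells at 3 hours, 2 lower and 1 higher at 6 hours, and 2 lower and 1 higher with anti-MacroH2A2. A minimum of 40 reads left 2 higher at 3 hours over no Dox, 4 lower and 0 higher from 3 to 12 hours in ES cells, for MEFs over ES cells 1 lower and 0 higher at 3 hours, 0 lower and 1 higher at 6 and at 12 hours, and 0 lower with anti-MacroH2A2. A fold of 2, with the members tested unchanged, left 0 higher from 3 to 12 hours in ES cells, 3 lower and 0 higher for MEFs over ES cells at 3 hours, 1 higher at 6 hours and 4 higher in HA-H3.3. With the 6 hour library 1 was lower and 0 higher in ES cells. Coverage in place of midpoints, and scaling outside the tiles of highest no-Dox signal, each gave 2 lower with anti-MacroH2A2. Chosen after seeing the data, the second start of Esrrb gave 0 higher from 3 to 12 hours in ES cells, 0 higher for MEFs over ES cells at 3 hours, 2 lower at 6 hours and 2 lower with anti-MacroH2A2, and leaving out Pou5f1 gave 1 higher at 6 hours. In the gene bodies, also chosen after seeing the data, the 6 hour library gave a median of −0.47 and 4 lower in ES cells, and 1 lower in MEFs. From 3 to 12 hours in ES cells the shares of all genes called lower and higher were 59.5% and 6.28% with 300 bp (3 members tested), 45.6% and 10.8% with 1000 bp (10 tested), 66.2% and 3.69% with 40 reads (4 tested) and 34.2% and 3.32% with a fold of 2 (8 tested). For 3 hours over no Dox 75.1% were higher with 300 bp (3 tested) and 86.8% with 40 reads (2 tested). For MEFs over ES cells at 3 hours the shares were 64% and 13.3% with 300 bp (2 tested), 57.6% and 13.4% with 1000 bp (10 tested), 70.5% and 9.62% with 40 reads (3 tested) and 51.3% and 5.74% with a fold of 2 (9 tested). At 6 hours they were 37.5% and 22.4% (1 tested), 47.3% and 10.4% (8 tested), 32.5% and 20.2% (1 tested) and 32.1% and 5.45% (5 tested), and at 12 hours with 300 bp and 40 reads 21.3% and 32.5%, and 16.9% and 32.9% (1 tested in each). With anti-MacroH2A2, 56.9% were lower and 5.67% higher with 1000 bp (8 tested) and 50.9% lower with 40 reads (2 tested), and for HA-H3.3 26.4% were higher with a fold of 2 (10 tested). Windows of 300 bp and the minimum of 40 reads leave fewer genes with enough reads, and the cause of the other changes was not tested. Depth limits single genes, where 4 to 48 reads in MEFs at 12 hours give wide intervals. No paired analysis was possible because each condition has 1 library.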

Other observations

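The HA-Macro ES library without Dox also held reads at these genes. Gene bodies of 7 of the 10 had a higher density there than their flanks, and after 12 hours of Dox 2 of 10 did, where 56.6% and 42.9% of 19466 bodies of protein-coding genes did. The Tbx3 body went from 94 reads without Dox to 94 reads at 12 hours in a deeper library (log2 −0.58, −1.01 to −0.15). It was the 1 body whose share of reads lay below that of the no-Dox library with its interval.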
